A study of Mus musculus with 23 samples.

Results

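The 9 genes Gapdh, Pgk1, Actb, Rplp0, Tbp, Ppia, Ywhaz, Gusb and Tfrc, which are often used to normalise expression measurements, were followed in TM4 cells treated with plasticizers. They were chosen by name, though with earlier results of these data known, and their probes were found by the RefSeq transcript printed for each probe. This gave 9 of the 20145 genes that could be named on the array, measured by 22 probes. Gapdh had 7 probes, Ywhaz, Rplp0 and Tfrc had 3 each, Tbp had 2, and Actb, Ppia, Gusb and Pgk1 had 1 each.

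TM4 is an immortalized line derived from mouse Sertoli cells, the cells that nurse developing sperm. The cells were exposed for 48 hr to 100 μM of 1 of 5 compounds dissolved in 1.0% DMSO, and control cells received the 1.0% DMSO alone. The compounds were MEHP (mono(2-ethylhexyl) phthalate, the active metabolite of a common phthalate), DINCH (diisononyl cyclohexane dicarboxylate, a commercial plasticizer), BDB (a butanediol dibenzoate), DOM (dioctyl maleate) and DOS (dioctyl succinate). There were 4 biological replicates in each group and 3 for DOS, each on its own 1-colour Agilent array, so the p-values below measure the spread between these 23 cultures of 1 cell line.

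A reference gene is a transcript taken to be equally abundant in every sample, so that the amount of another transcript can be expressed over it. The genes in common use come from unrelated basic processes, among them glycolysis, the cytoskeleton, translation, transcription and iron uptake, and each process can itself respond to a treatment. The level used here is the log2 of a probe's signal minus the log2 of its array's 75th percentile, which places every array on 1 scale. The brightest probe stands for its gene unless another is named, and levels are compared between arrays and never between probes. In RNA from whole cultures, fewer cells of a kind and less RNA in each cell cannot be told apart.

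On each array 43.4% to 52.2% of spots exceeded the background clearly, and no spot was saturated. Of 14 Sertoli cell markers, 7 were above background on all 23 arrays, among them Gata4, Dhh and Inhbb, whereas Wt1, Fshr and Cldn11 were above background on none and Amh on 1. Of the markers of other testis cells on the array, 1 of 5 for Leydig cells (Cyp17a1), 2 of 4 for peritubular myoid cells (Acta2 and Cnn1), 1 of 3 for macrophages (Csf1r) and 0 of 4 for germ cells were above background on all 23 arrays, while Cyp11a1, Hsd3b1, Lhcgr, Myh11, Ptprc, Adgre1, Ddx4, Dazl and Kit were above it on none. The arrays lay at 4 positions along each of 3 slides. DMSO, DOM and DOS were at positions 2 and 4 and MEHP, BDB and DINCH at positions 1 and 3, so for the last 3 compounds the position and the comparison with DMSO cannot be told apart.

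Of the 9 genes, 6 varied less over the 23 arrays than the median probe, Tbp only slightly less, and the other 3 varied more. The standard deviation (SD) of the log2 level was 0.121 for Gapdh, 0.130 for Rplp0, 0.139 for Actb, 0.152 for Ppia, 0.18 for Ywhaz and 0.227 for Tbp. It was 0.302 for Gusb, 0.364 for Pgk1 and 0.633 for Tfrc. Over the 21549 probes that were above background on all arrays, the median SD was 0.245, and 80% of them lay between 0.148 and 0.445. Gapdh lay at percentile 2.87 of those probes, Tbp at percentile 42.7 and Tfrc at percentile 97.1. The median of the 9 genes was 0.18. The 4 lowest SDs depended on the normalization. With quantile normalization they were 0.0582 for Gapdh, 0.0672 for Actb, 0.0713 for Rplp0 and 0.0724 for Ppia (median of all probes 0.24). With normexp background correction Gapdh ranked 4 of the 9 at 0.124, and Tbp, at 0.242, lay above the median of all probes (0.196). Bright probes varied less in general, with a median SD of 0.176 in the brightest 10% and 0.326 in the dimmest 10%, and no test was made of whether the reference genes varied less than other probes of their brightness.

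**Figure D1:**
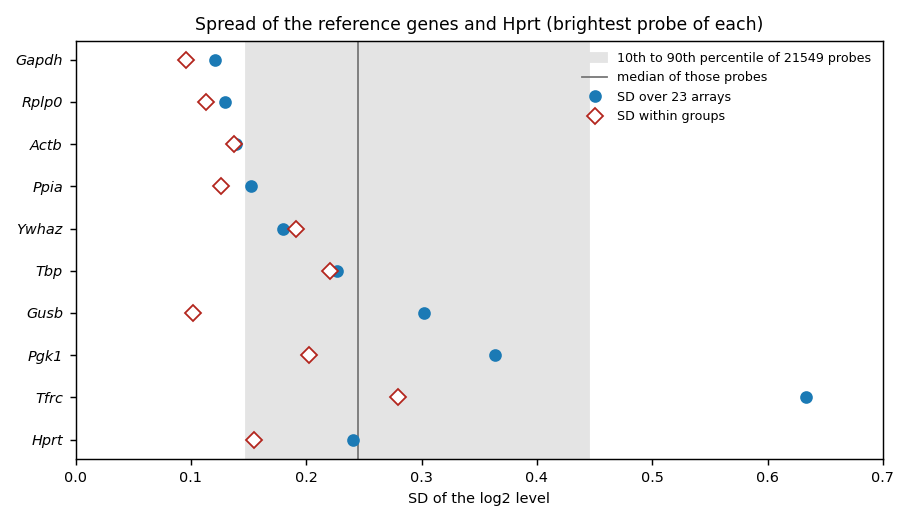
SD of the log2 level of the 9 reference genes and of Hprt over the 23 arrays (filled circles) and within the 6 groups (open diamonds), against the range from 0.148 to 0.445 that holds the middle 80% of 21549 probes (shaded) and their median (line). Gusb has a within-group SD of 0.102 and an SD of 0.302 over all arrays, and Tfrc lies outside the shaded range.

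The spread lay within groups for some genes and between groups for others. In Gusb the SD within groups was 0.102 and the SD of the 6 group means was 0.302, so nearly all of its spread lay between treatments. Actb, Tbp and Ywhaz spread as much within groups (0.137, 0.221 and 0.191) as over all arrays. Tfrc was spread in both ways, with an SD of 0.28 within groups and 0.613 between group means. Gusb and Tfrc were each measured by a probe printed in 10 spots, whose values on 1 array differed with a median SD of 0.0807 for Gusb and 0.0992 for Tfrc. The standard error of an array's mean was therefore about 0.0255 and 0.0314, well below the differences between arrays.

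The ratio of 2 reference genes on the same array does not change when a constant is subtracted from every log2 level of that array, and it gave nearly the same order. Among the 36 pairs, the ratio of Gapdh to Rplp0 varied least, with an SD of 0.0764 and a 1.24-fold range over 23 arrays. The ratio of Tfrc to Pgk1 varied most, with an SD of 0.859 and a 7.82-fold range. Averaged over its 8 partners, the SD was 0.251 for Actb, 0.256 for Gapdh, 0.262 for Rplp0, 0.269 for Ppia, 0.28 for Ywhaz and 0.337 for Tbp. It rose to 0.407 for Gusb, 0.417 for Pgk1 and 0.685 for Tfrc. By this measure Actb came first and Tfrc last in each of 30 settings. Most of these leave out 1 array, and those that only rescale each array cannot change the ratio. Gapdh and Ppia, which held ranks 2 to 4, and Rplp0, which held ranks 3 to 4, changed places between settings. With quantile normalization the average was 0.354 for Gusb and 0.371 for Pgk1. The probes of Gapdh, Actb, Ppia and Rplp0 were all very bright (percentile 99.7 to 100 by mean level). Without scaling between arrays their SDs were 0.151, 0.171, 0.135 and 0.124, against 0.31 for Tbp and 0.457 for Gusb. Scaling thus lowered the SD of Gapdh, Actb, Tbp and Gusb but not that of Ppia or Rplp0. Whether the bright probes share a response that their ratios cannot show was not tested.

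**Figure D2:**
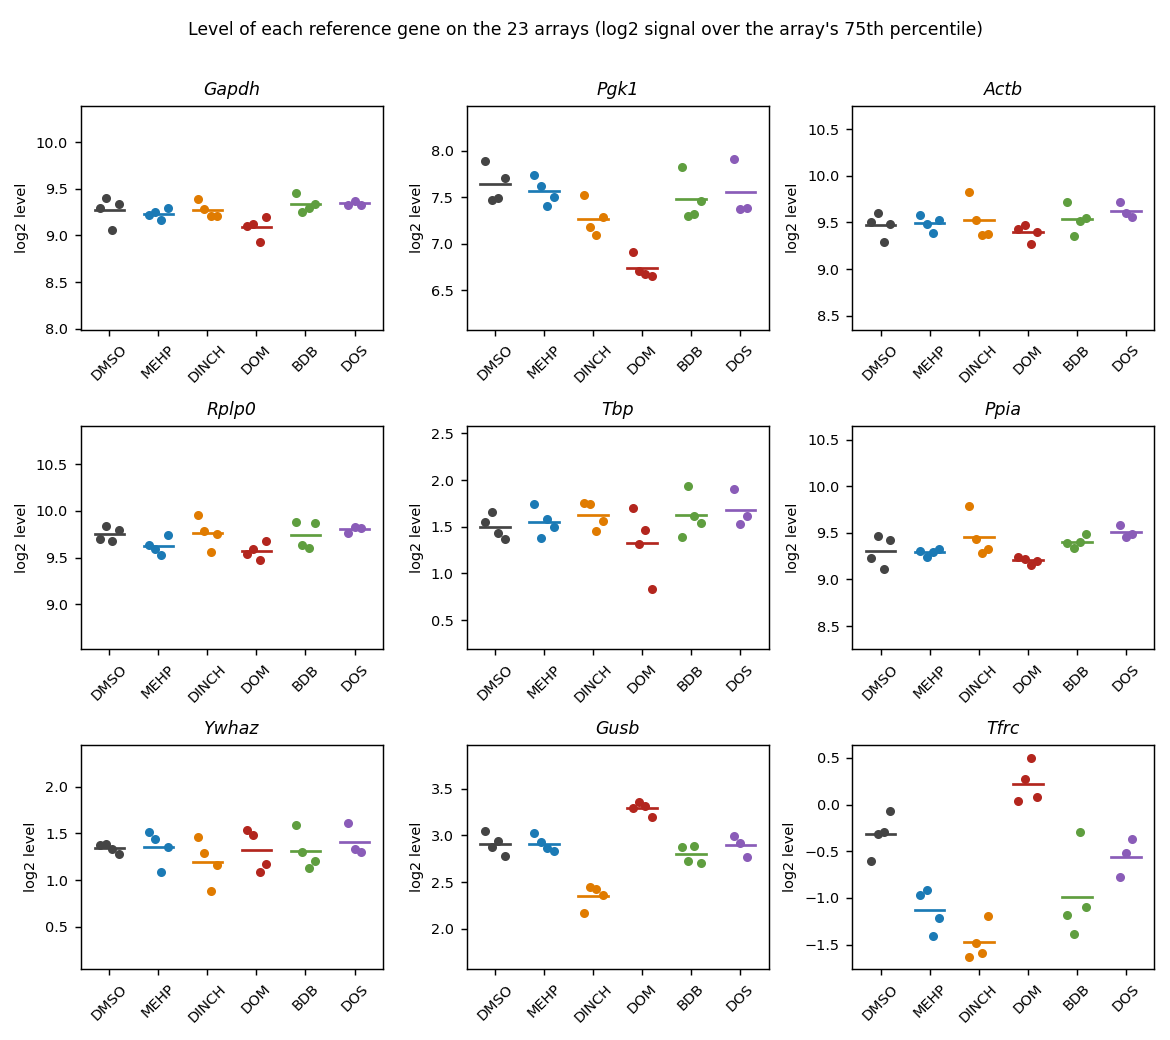
Level of each reference gene on each of the 23 arrays, as log2 signal over the array's 75th percentile, with 1 point per array and a line at the mean of each group (n = 4, and 3 for DOS). All panels cover the same number of log2 units. The DOM arrays stand apart in the panels of Pgk1, Gusb and Tfrc, and the DINCH arrays in that of Gusb. In the panel of Tfrc the DINCH arrays lie below those of DMSO, DOM and DOS and overlap those of MEHP and BDB.

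Each compound was compared with the same 4 DMSO arrays, so the 5 comparisons are not independent. A gene was called when limma gave an adjusted p below 0.05 (Benjamini-Hochberg over all tested probes) and a change above 1.5-fold for any of its probes. With MEHP 1 of the 9 genes was called, Tfrc, against 1.68% of all genes tested. With DINCH it was again Tfrc alone, against 8.26% of all genes. With DOM it was Pgk1 alone, against 20.5% of all genes. None was called with BDB or with DOS, where 0% of all genes were called by limma. At an unadjusted p below 0.05, 1 of the 9 brightest probes (that of Tfrc) differed with BDB and 0 with DOS. In a test for any difference among the 6 groups, which had no limit on fold, 4 of the 9 genes were called (Gapdh, Gusb, Tfrc and Pgk1), against 61.4% of all genes. Gapdh was called there through dimmer probes only. Its brightest probe did not pass (adjusted p = 0.101 by the limma F test), and Gapdh was not called with quantile normalization.

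A 95% confidence interval that stays within 1.5-fold gives a bound on how far a gene could have moved. On their brightest probes all 9 genes had such an interval with DOS (79.2% of all genes), 8 with MEHP (79.5%) and 8 with BDB (80.2%), where Tfrc was the exception. With DINCH 6 had one (61.9% of all genes) and with DOM 6 (48.8%), the exceptions being Gusb, Pgk1 and Tfrc with both compounds. Gapdh, Actb, Rplp0, Ppia, Ywhaz and Tbp stayed within this bound on their brightest probes with every compound. The 6 dimmer Gapdh probes, described below, did not stay within it with DOM. Their intervals had lower ends of -0.59 to -0.68 on the log2 scale, each beyond 1.5-fold.

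**Figure D3:**
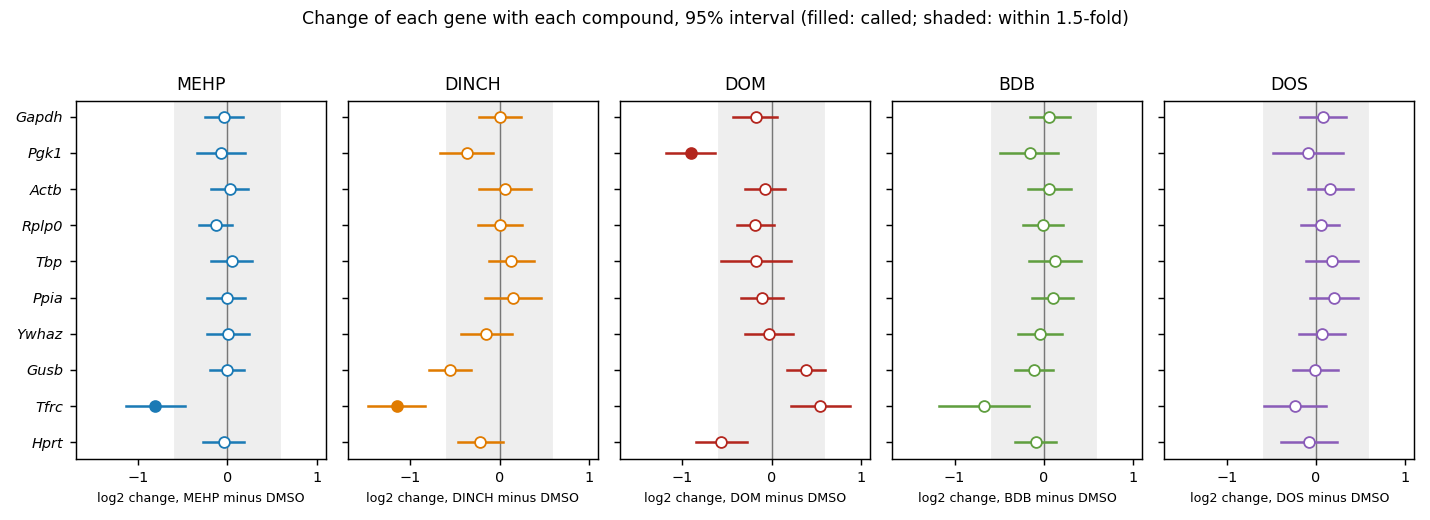
Change of each reference gene and of Hprt with each compound, as log2 level with the compound minus log2 level with DMSO; circles are the estimates, bars the 95% confidence intervals from limma, filled circles the called genes and the shaded band a change of less than 1.5-fold. Tfrc is called with MEHP (-0.81) and DINCH (-1.15) and Pgk1 with DOM (-0.90).

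Tfrc encodes the transferrin receptor, through which cells take up iron bound to transferrin. Its mRNA is known to be stabilised when iron is low, and its gene is a known target of hypoxia-inducible factors. The 4 DMSO arrays had log2 levels of -0.60, -0.32, -0.29 and -0.07. With DINCH the levels were -1.63, -1.48, -1.59 and -1.19, all below every DMSO array. Tfrc fell by 1.15 on the log2 scale (SE 0.14, adjusted p = 0.00363 by limma), a 2.22-fold decrease. With normexp background correction the change was smaller (-0.75) and still called.

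With MEHP the Tfrc levels were -0.97, -0.92, -1.41 and -1.22, again all below every DMSO array. The decrease was 1.75-fold (log2 change -0.81, SE 0.14, adjusted p = 0.0312 by limma). This call was fragile: the adjusted p passed 0.05 when any of 7 of the 8 arrays was left out, DMSO replicate 1 being the exception, while the change stayed between -0.90 and -0.71. With BDB the levels were -1.18, -1.39, -0.29 and -1.10, so 3 arrays lay below all DMSO arrays and replicate 3 lay among them. The BDB change of -0.67 (SE 0.22) did not pass the test (adjusted p = 0.21 by limma), and without BDB replicate 3 it was -0.90 and still did not.

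The low values of Tfrc were thus found with MEHP, DINCH and BDB, the 3 compounds whose arrays lay at positions 1 and 3, and the part of the position in this was not tested. Within slides, the difference from DMSO was -1.03, -1.18 and -1.31 for DINCH on the 3 slides and -0.34, -1.11 and -1.14 for MEHP. MEHP and DINCH shared their positions, and Tfrc differed between them by 0.34 (95% interval 0.03 to 0.66), which did not pass the test over all probes (adjusted p = 0.23 by limma).

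With DOM the Tfrc levels were 0.04, 0.27, 0.50 and 0.08, all above every DMSO array. DOM and DMSO shared their positions on the slides. The increase of 0.54 (SE 0.14, adjusted p = 0.0194 by limma) was 1.46-fold, just under the limit of 1.5-fold, and it passed that limit (0.61) with the slide as a block. With DOS the levels were -0.78, -0.52 and -0.37, overlapping those of DMSO, and the change of -0.24 did not pass the test (adjusted p = 0.827 by limma). In order of the group means, Tfrc was highest with DOM (0.22 ± 0.21, SD), then with DMSO (-0.32 ± 0.22), DOS (-0.56 ± 0.21), BDB (-0.99 ± 0.48), MEHP (-1.13 ± 0.23) and DINCH (-1.47 ± 0.20). The neighbours DMSO and DOS, DOS and BDB, BDB and MEHP, and MEHP and DINCH overlapped in their arrays.

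A second Tfrc probe had changes of the same sign with more spread. It fell by 1.09 with DINCH (SE 0.28, adjusted p = 0.0392 by limma) and was called. Its change was -0.89 with MEHP (adjusted p = 0.176) and 0.21 with DOM (adjusted p = 0.606), neither of which passed. With BDB it was -0.74 (adjusted p = 0.333) and with DOS -0.64 (SE 0.28, adjusted p = 0.701), the latter beyond 1.5-fold and larger than the -0.24 of the brightest probe. The other Tfrc probe was above background on 7 of the 23 arrays and was not tested.

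Pgk1 encodes phosphoglycerate kinase, an enzyme of the later part of glycolysis that yields ATP, and it too is a known target of hypoxia-inducible factors. It was measured by 1 probe in 1 spot. The DMSO arrays had log2 levels of 7.89, 7.47, 7.49 and 7.71, and the DOM arrays 6.91, 6.71, 6.68 and 6.65. Every DOM array lay below every DMSO array, and below all arrays of the other compounds. Pgk1 fell by 0.90 on the log2 scale with DOM (SE 0.12, adjusted p = 0.00097 by limma), a 1.87-fold decrease.

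The decrease of Pgk1 with DOM was called in each of the 12 other settings and with each of the 8 arrays left out, and it was -1.08, -0.80 and -1.06 within the 3 slides. With DINCH the levels were 7.52, 7.18, 7.09 and 7.29, 3 of them below all DMSO arrays, and the change of -0.37 (SE 0.13) did not pass the test (adjusted p = 0.117 by limma). With the replicate number as a block, which pairs the DINCH and DMSO arrays, it did pass (adjusted p = 0.0298), as it did with the slide as a block (adjusted p = 0.0333) and with normexp (adjusted p = 0.01), without reaching 1.5-fold. The changes with MEHP (-0.07), BDB (-0.16) and DOS (-0.09) were smaller than the SD within groups of 0.202.

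The bases before the start sites of Pgk1 and Tfrc are shown because these were the 2 members called in any comparison with DMSO and because both genes are known to respond to hypoxia. They are from RefSeq on GRCm38, 250 bases upstream of the start on the gene's own strand. Capitals mark ACGTG on either strand, which is 1 form of the core of the element bound by hypoxia-inducible factors. The window of Pgk1 is chrX:106186850-106187099 on the plus strand, and that of Tfrc, for the more downstream of 2 listed starts, is chr16:32608872-32609121 on the plus strand.
Pgk1: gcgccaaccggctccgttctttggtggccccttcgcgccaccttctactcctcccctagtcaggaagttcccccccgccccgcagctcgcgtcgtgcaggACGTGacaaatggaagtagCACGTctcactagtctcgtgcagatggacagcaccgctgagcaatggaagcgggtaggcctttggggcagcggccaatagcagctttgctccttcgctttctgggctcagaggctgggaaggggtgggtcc
Tfrc: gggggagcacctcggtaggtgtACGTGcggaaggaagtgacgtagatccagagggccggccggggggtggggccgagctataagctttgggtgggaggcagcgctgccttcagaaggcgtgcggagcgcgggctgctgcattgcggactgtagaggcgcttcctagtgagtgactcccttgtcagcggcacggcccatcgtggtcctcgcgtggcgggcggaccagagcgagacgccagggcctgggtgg
The core was searched for only as ACGTG, on both strands, and every match to CACGTG would contain it. Other forms of the core were not searched for, so a window without ACGTG may still hold one. Pgk1 had 2 matches, which began 150 and 131 bases before the start, and Tfrc had 1 at 228 bases. The other Tfrc window, and the windows of Gapdh, Rplp0, Tbp, Ppia and Gusb, had no ACGTG, and those of Actb and Ywhaz were not analysed here. Of 32851 promoters of this length, 16.6% held ACGTG and 6.02% held CACGTG, which none of the members had. A match is a description of the letters, and whether hypoxia-inducible factors acted on either gene was not tested.

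Gapdh, the glycolytic enzyme that comes just before phosphoglycerate kinase, gave different answers by probe. Its brightest probe had levels of 9.29, 9.40, 9.06 and 9.34 with DMSO and 9.10, 9.12, 8.93 and 9.20 with DOM, which overlapped. The change of -0.18 (SE 0.11) did not pass the test (adjusted p = 0.228 by limma). The 6 dimmer probes all fell with DOM, by 0.36 to 0.48 on the log2 scale, with adjusted p between 0.00361 and 0.0269 by limma. On each of these 6 probes every DOM array lay below every DMSO array. None of the 6 decreases reached 1.5-fold, and with quantile normalization the 6 changes were smaller (-0.29 to -0.14).

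For the Gapdh probe that fell most, the levels were 7.64, 7.64, 7.57 and 7.73 with DMSO and 7.12, 7.21, 7.11 and 7.23 with DOM, a change of -0.48 (SE 0.09). The low SD of Gapdh given above was that of its brightest probe. The 6 other probes had SDs between 0.184 and 0.236, still below the median of all probes. The probes' sequences were not analysed here, and Gapdh, Actb, Ppia and Rplp0 are known to have many processed pseudogenes in the mouse, so which transcripts each probe also detects was not tested.

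**Figure D4:**
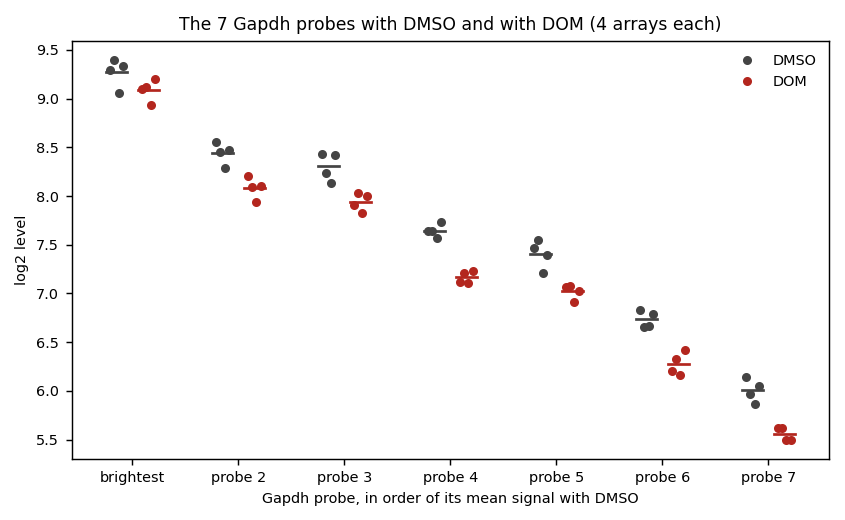
Levels of the 7 Gapdh probes on the 4 DMSO and 4 DOM arrays, as log2 signal over the array's 75th percentile, with lines at the group means and the probes in order of their signal. The groups overlap on the brightest probe and do not overlap on the 6 others, where the mean with DOM is lower by 0.36 to 0.48.

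Gusb encodes beta-glucuronidase, a lysosomal enzyme that splits glucuronic acid from sugar chains. The DMSO arrays had log2 levels of 3.05, 2.87, 2.94 and 2.78. With DOM they were 3.29, 3.36, 3.32 and 3.20, all higher, and with DINCH 2.17, 2.45, 2.43 and 2.36, all lower. Gusb thus moved in opposite directions with these 2 compounds without overlap with DMSO in either case.

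The increase of Gusb with DOM was 0.38 (SE 0.09, adjusted p = 0.0142 by limma), 1.30-fold, and the decrease with DINCH was 0.56 (SE 0.10, adjusted p = 0.0134), 1.47-fold. Neither reached 1.5-fold, though the DINCH change did (-0.59 and -0.60) when DINCH replicate 2 or DMSO replicate 4 was left out. Its changes with MEHP (-0.0015), BDB (-0.11) and DOS (-0.01) lay within or near its SD within groups of 0.102. Gusb also differed between MEHP and DINCH, which shared slide positions, by 0.56 (SE 0.10, adjusted p = 0.0237 by limma). Its low level with DINCH was thus measured against arrays at the same positions as well. The difference stayed at 0.56 but did not pass the limma test with the slide as a block (adjusted p = 0.0514) or with the replicate number as a block (adjusted p = 0.072).

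The remaining genes did not pass the test with any compound. Actb encodes the cytoskeletal protein beta-actin, and its changes lay between -0.08 with DOM and 0.16 with DOS. Rplp0, a protein of the stalk of the large ribosomal subunit, ranged from -0.19 with DOM to 0.05 with DOS. Ppia encodes cyclophilin A, a prolyl isomerase that assists protein folding, and ranged from -0.11 with DOM to 0.20 with DOS. Its highest level, 9.79, was on DINCH replicate 1, and so were those of Actb (9.83) and Rplp0 (9.96). That array had the lowest 75th percentile signal (204.6). Before scaling, its Ppia signal of 181000 was below the 211000 of DOM replicate 1, and its Actb signal of 187000 below the 250000 of MEHP replicate 1.

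Tbp, the TATA-binding protein that helps to place RNA polymerase at promoters, ranged from -0.18 with DOM to 0.18 with DOS. Its brightest probe had its lowest level of all arrays on DOM replicate 4 (0.83, against 1.31 to 1.70 on the other DOM arrays), whereas a dimmer Tbp probe changed by 0.01 with DOM. Ywhaz encodes a 14-3-3 protein that binds phosphorylated partners in signalling, and ranged from -0.15 with DINCH to 0.07 with DOS. These 5 genes with Gapdh had a mean level of 6.78 ± 0.10 with DMSO (SD, n = 4), 6.76 ± 0.07 with MEHP, 6.81 ± 0.17 with DINCH, 6.65 ± 0.09 with DOM, 6.82 ± 0.06 with BDB and 6.90 ± 0.08 with DOS (n = 3).

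Compounds whose arrays shared slide positions were also compared directly, in 2 pairs. DOM and DOS are diesters of the same alcohol and differ in that the diacid of DOM is unsaturated and that of DOS saturated. Between them 2 of the 9 genes were called, Tfrc and Pgk1, against 15.2% of all genes. Tfrc was higher with DOM by 0.78 (SE 0.15, adjusted p = 0.0113 by limma) and Pgk1 lower by 0.81 (SE 0.16, adjusted p = 0.0109), in each case without overlap between the 4 DOM and 3 DOS arrays. Gusb was higher with DOM by 0.40 (adjusted p = 0.0333), which was 1.32-fold and not called, and with the replicate number as a block it did not pass the test (adjusted p = 0.0927).

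Of the 9 genes, 5 had an interval within 1.5-fold between DOM and DOS, against 49.4% of all genes. Gapdh (-0.26), Actb (-0.23), Ppia (-0.30) and Rplp0 (-0.23) were each lower on all 4 DOM arrays than on any DOS array, with none passing the test on the brightest probe (adjusted p = 0.117, 0.148, 0.0575 and 0.143 by limma). With quantile normalization the differences were -0.04 for Gapdh and -0.07 for Ppia and turned the other way for Actb (0.01) and Rplp0 (0.05). Of the 6 dimmer Gapdh probes, 3 passed the test between DOM and DOS (adjusted p = 0.0331 to 0.036), each lower with DOM by less than 1.5-fold. Between MEHP and DINCH no member was called, against 2.4% of all genes. Gusb, Tfrc and Pgk1 differed there at an unadjusted p below 0.05, and 7 of the 9 genes had an interval within 1.5-fold, against 75.2% of all genes.

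Other genes of the same processes were counted as a background to the members, 134 genes in 9 lists of which 128 were tested. With DOM, 20 of them were called (15.6%), a smaller share than the 20.5% of all genes. Of the 17 lysosomal hydrolases other than Gusb, 8 rose and none fell. The median change of that list was 0.47, against -0.03 over all genes tested. Of 16 glycolytic enzymes other than Gapdh and Pgk1, 4 fell with DOM and none rose. Among all 12005 genes tested, 1275 were called lower with DOM and 1189 higher. The largest change of a glycolytic enzyme was in hexokinase Hk2 (-1.55, adjusted p = 0.00101 by limma).

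Of 9 iron genes tested beside Tfrc, 1 rose with DOM, the iron exporter Slc40a1 (3.26, SE 0.30, adjusted p = 0.000254 by limma). Of 10 cyclophilins other than Ppia, 3 fell, with the largest change in Ppid (-0.82), and 2 of 12 genes related to Tbp fell, with the largest in Tbpl1 (-0.98). Of 35 ribosomal proteins of the large subunit 1 was called, Rpl22 (1.21), and none of 6 other 14-3-3 genes or 4 other actins. Among 19 further genes used as references, 1 was called with DOM. The shares of these lists were not tested against those of all genes, of which 20.5% were called in either direction.

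With DINCH 9 of the 128 genes were called (7.03%, against 8.26% of all genes), among them the 14-3-3 gene Ywhag (-0.80), the cyclophilin Ppil1 (-0.76), the ribosomal protein Rpl30 (-0.79) and the glycolytic enzyme Eno2 (0.70). None of the 19 further reference genes was called with DINCH. With MEHP, BDB and DOS none of the 128 was called by limma, and 23, 14 and 9 of them had an unadjusted p below 0.05.

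Hprt, a purine salvage enzyme, was the gene the study used to normalise its qPCR, and on the arrays it moved with DOM. Its levels were 5.62, 5.32, 5.36 and 5.32 with DMSO and 5.14, 4.74, 4.79 and 4.69 with DOM, without overlap. The decrease of 0.57 (SE 0.13, adjusted p = 0.00947 by limma) was 1.48-fold, just under the limit, and it passed it with the slide as a block (-0.62). Its SD over the 23 arrays was 0.241, close to the median of all probes. With DINCH all 4 Hprt levels (4.98 to 5.28) lay below those of DMSO, and the change of -0.22 did not pass the test (adjusted p = 0.263).

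The choice of reference changed the size of a target's response. Mvd, an enzyme of cholesterol synthesis, had log2 levels of 3.01, 3.18, 2.95 and 3.09 with DMSO and 5.16, 5.01, 4.64 and 4.82 with DOM. Its increase with DOM was 3.60-fold over the 75th percentile, 4.08-fold over Gapdh, 3.79-fold over Actb, 5.32-fold over Hprt, 6.71-fold over Pgk1 and 2.47-fold over Tfrc. With DINCH it lay between 1.86-fold over Ppia and 4.57-fold over Tfrc, and with MEHP between 2.33-fold over Tbp and 4.22-fold over Tfrc.

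Mvd was taken from the genes that the study had reported as changed on these same arrays with MEHP, DINCH and DOM. Its p-values with these compounds are therefore not independent evidence of a change. With MEHP, DINCH and DOM the Mvd increase had an exact permutation p (two-sided) of 0.0286 over each of the 9 references and over Hprt, the smallest p that 4 arrays against 4 allow (0.0372 after Benjamini-Hochberg adjustment over 65 tests). With BDB the change over the references ran from -0.15 with Tbp to 0.64 with Tfrc, the only one beyond 1.5-fold (1.56-fold, exact permutation p = 0.0857). With DOS Mvd was higher over every reference, from 1.25-fold over Ppia to 1.68-fold over Tfrc. Its exact permutation p was 0.0286 (0.0372 adjusted), the smallest that 4 arrays against 3 allow, over Hprt and over each member but Tbp and Pgk1, where it was 0.0571 (0.0714 adjusted). The 65 tests reuse the values of 1 gene. By limma over all tested probes, the Mvd change with DOS (0.52, SE 0.14) did not pass the test (adjusted p = 0.467). Thus the order of MEHP, DINCH and DOM by size depended on the reference: DOM was largest over 7 members and Hprt, and DINCH was largest over Gusb (1.60, against 1.46 for DOM) and Tfrc (2.19, against 1.30). The differences between compounds over a given reference were not tested.

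**Figure D5:**
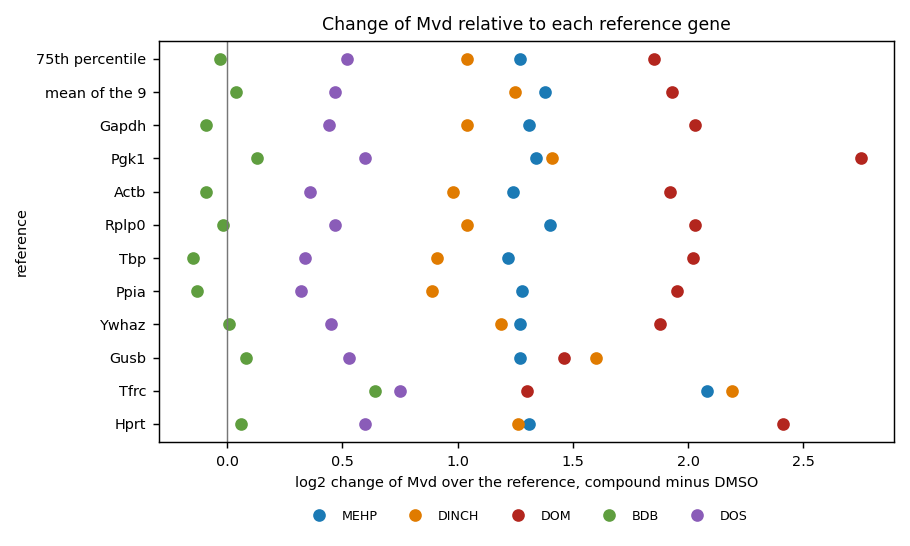
Change of Mvd with each compound when expressed over each reference, as a log2 difference between the mean with the compound and the mean with DMSO (n = 4 arrays per group, 3 for DOS). Over most references the DOM points lie near 2, over Pgk1 at 2.75, over Gusb at 1.46 and over Tfrc at 1.30.

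Across the 23 arrays the levels of the members were related in groups. Pearson's r was 0.824 between Actb and Ppia, 0.818 between Gapdh and Rplp0 and 0.794 between Gapdh and Actb, all brightest probes scaled by the same percentile. Gusb and Tfrc had an r of 0.789, and Ppia and Gusb one of -0.597. Among 14430 named probes of other genes above background on all arrays, those most like Tfrc over 23 arrays were Dnajc25 (r = 0.898, Spearman's rho = 0.882), Slc41a2 (0.896 and 0.895) and Trmt12 (0.894 and 0.899). Those most like Pgk1 were Pdap1 (0.949 and 0.892), Rfc4 (0.946 and 0.867) and Nup35 (0.932 and 0.835), each with its lowest group mean with DOM. These values describe arrays that share groups, slides and scaling, and no test was made of them.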

How the data were processed

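The authors scanned the arrays and deposited linear spot intensities from Feature Extraction 11.5.1.1, background-subtracted and detrended but not scaled between arrays. A second file from the authors held log2 values that were aligned at the 75th percentile of every array, with each probe's median subtracted. Here each log2 intensity (floor of 1) had the log2 of the 75th percentile of that array's 59305 non-control spots subtracted, outlier spots were dropped and a probe's spots were averaged. Symbols came from RefSeq transcripts (GRCm38.p6), which named 26582 of 55681 probes.

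Each compound was compared with DMSO with limma 3.58.1 (R 4.3.3), using probes that cleared the background and the 20th percentile throughout at least 1 of the groups. The F test used all 6 groups. The members and lists were chosen with earlier results of these data known. Genes named beside the members were Hprt, Mvd, the called gene of each list with the largest change, and the 3 genes most correlated with each of the 2 members with the largest SD. Some genes that this rule names are not reported here. The steps were tested on simulated data. The extraction software found every quality measure in range for 15 arrays, and none of the 23 was dropped.

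Replicate numbers are shared between groups. After the group means were subtracted, arrays with the same number correlated at 0.169 to 0.496 for DINCH, 0.255 to 0.434 for BDB and 0.199 to 0.452 for DOS, above 0.1 in every pair, which was taken as pairing found from the values, as it was for DOM against DOS. For MEHP (from -0.14) and DOM (from 0.0384) it was not.

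Alternatives were quantile, median and no scaling, normexp background correction (offset of 50), the authors' values, outlier spots kept, other filters on dim probes, slide or replicate as a block, all groups in 1 fit, a variance trend, only the brightest probe of each gene, and leaving out each array. Precision is limited by the number of arrays and by the signal over background, as arrays have no depth of reads.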

Additional observations from a re-analysis of the deposited data

How the results depend on the processing

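The calls of Tfrc with DINCH and of Pgk1 with DOM were made in all 12 alternative settings and with each array left out. The MEHP call of Tfrc was lost with no filter on dim probes, with detection on 1 array and with the replicate number as a block (adjusted p = 0.0619), which left 0 members called in each case. The MEHP arrays were not taken as paired with those of DMSO, because arrays of the same number correlated at -0.14 to 0.454. This does not show that they are unpaired. The replicate block changed no other call of a member with a compound, although it brought Pgk1 with DINCH below an adjusted p of 0.05. With DOM, 2 members were called with the slide as a block, which added Tfrc at 0.61. Between DOM and DOS, 0 were called with no filter on dim probes, where more probes were tested. The median SD of the members was 0.273 with no scaling between arrays. BDB and DOS had no member called in any setting, while 0 to 120 genes were called with BDB and 0 to 8 with DOS. Leaving out single arrays moved the count of called members over 0 to 1 with MEHP and between MEHP and DINCH, and over 1 to 2 with DINCH and with DOM. Gusb was the added member with DINCH (without DINCH replicate 2 or DMSO replicate 4) and between MEHP and DINCH (without DINCH replicate 2), and Tfrc with DOM (without DOM replicate 1 or 4 or DMSO replicate 4).

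No called change reversed its sign. Small changes that were not called did so, and the cause was not tested. With quantile normalization, which gives all arrays 1 distribution, the log2 change became 0.01 for Ppia with MEHP, -0.11 for Gapdh, -0.05 for Actb and -0.14 for Rplp0 with DINCH, 0.06 for Actb and 0.03 for Ppia with DOM, -0.01 for Gapdh and for Actb with BDB, and -0.01 for Gapdh and -0.10 for Rplp0 with DOS. It became 0.01 for Actb and 0.05 for Rplp0 between DOM and DOS, and 0.11 for Gapdh, 0.11 for Actb and 0.04 for Rplp0 between MEHP and DINCH. With normexp it was 0.0037 for Ppia and 0.04 for Gusb with MEHP, 0.02 for Ywhaz with DOM, 0.05 for Rplp0 with BDB and 0.04 for Actb between MEHP and DINCH. Scaling to the median gave 0.0039 for Gusb with MEHP and 0.02 for Rplp0 with BDB, the authors' values gave 0.01 for Gusb with MEHP, and the slide as a block -0.04 for Ywhaz with MEHP, -0.0013 for Gapdh with DINCH and 0.01 for Gusb with DOS.

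With single arrays left out, the changes with MEHP ran from -0.11 to 0.0032 for Gapdh, -0.03 to 0.07 for Actb, -0.01 to 0.11 for Tbp, -0.08 to 0.04 for Ppia, -0.04 to 0.04 for Gusb, -0.05 to 0.09 for Ywhaz, -0.13 to 0.01 for Pgk1 and -0.10 to 0.03 for Hprt. With DINCH they ran from -0.07 to 0.04 for Gapdh, -0.04 to 0.11 for Actb and -0.06 to 0.07 for Rplp0, and with DOM from -0.10 to 0.05 for Ywhaz. With BDB they ran from -0.01 to 0.10 for Gapdh, -0.0017 to 0.12 for Actb, -0.13 to 0.02 for Ywhaz and -0.06 to 0.04 for Rplp0. With DOS they ran from -0.06 to 0.05 for Gusb, -0.03 to 0.12 for Ywhaz, -0.27 to 0.0037 for Pgk1 and -0.18 to 0.03 for Hprt. Between DOM and DOS Ywhaz ran from -0.17 to 0.01, and between MEHP and DINCH Actb from -0.09 to 0.07.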

Other observations

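The member that varied least against Hprt over the 23 arrays was Pgk1, with an SD of the log2 ratio of 0.174. The other 8 members had SDs between 0.208 (Tbp) and 0.772 (Tfrc). Hprt and Pgk1 both lie on chromosome X in the mouse, and both were lower on every DOM array than on every DMSO array (by 0.57 and 0.90). No relation between their position and their change was tested.

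Within each group of 4 arrays, the highest and lowest values of each member were compared with the rest of the group by Dixon's test. None of the 45 sets of values held an array that stood apart at the 95% level, where chance alone would give about 1 in 20. The DOS group, with 3 arrays, was not tested.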
